A study of Arabidopsis thaliana with 16 samples.

Results

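PUCHI (AT5G18560) encodes a transcription factor of the AP2/ERF family, and its transcript was followed through 8 treatments of Arabidopsis thaliana roots. The gene was chosen by name: it is the 1 probe set that the array's annotation gives to PUCHI, of 22746 probe sets tested and of 13356 genes with a probe set of their own. PUCHI is known for its part in the lateral root primordium, the group of cells that forms inside the parent root and grows out as a new root. It restrains and orders the cell divisions there, and plants that lack it make misshapen primordia. Auxin raises PUCHI transcript in this setting, and LBD16, a LOB-domain transcription factor made in the founder cells in response to auxin, acts in the same developmental step. In flowers, PUCHI also takes part in floral meristem identity.

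All plants were gLBD16:GR in the lbd16-1 lbd18-1 lbd33-1 background, so LBD16 joined to the hormone-binding part of the glucocorticoid receptor was made under LBD16's own regulatory region in plants mutated in LBD16, LBD18 and LBD33. Such a fusion protein stays outside the nucleus until the steroid dexamethasone (DEX) is given. Roots of 5-day-old seedlings were collected after 4 h with every combination of 2 µM DEX, 1 µM of the synthetic auxin NAA and 10 µM of cycloheximide (CHX), which blocks protein synthesis, and the mock group received the solvent DMSO. This gave the groups mock, DEX, NAA, NAA+DEX, CHX, DEX+CHX, NAA+CHX and NAA+DEX+CHX, with 2 arrays each and 16 in all. Every group carried the fusion and the 3 mutations. A line without the fusion was not analysed here, so an effect of DEX on the plant itself and an effect through the fusion cannot be told apart. Whole roots were measured, so more cells that make a transcript and more transcript per cell cannot be told apart either.

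The median intensity of an array was 150.8 to 174.7 in the 8 arrays without CHX and 179.2 to 189.2 in the 8 arrays with CHX. Of 11 root marker genes, 1 had a listed probe set, AT1G62500, at 25.2 to 78.8, and of 8 shoot marker genes, 1 had one, RCA (Rubisco activase), at 279.1 to 491.2 over the 16 arrays. RCA had mean DEX effects of -0.24 and -0.10 that did not pass the test, and its part in the results was not tested. The shoot gene thus read above the median of every array and the root gene below it. The root label could be checked with these genes to a small extent only, and whether the samples held shoot tissue was not tested. The LBD16 probe set does not tell the fusion's transcript from that of the mutant gene and so checks no label.

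PUCHI was lowest in mock roots and highest where auxin and DEX were given together without CHX. In intensity, a linear measure of hybridised transcript, it read 63.5 and 46.7 in the mock arrays and 108.2 and 110.4 in the DEX arrays. The NAA arrays read 495.2 and 572.6, and the NAA+DEX arrays 1519.8 and 1513.3. All 4 groups without CHX were separated from each other, with no overlap between arrays.

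With CHX present, the auxin-free groups were much higher than their counterparts without it. PUCHI read 275.9 and 291.1 in the CHX arrays and 793.4 and 672.8 in the DEX+CHX arrays. It read 297.1 and 318.6 in the NAA+CHX arrays and 775.6 and 670.2 in the NAA+DEX+CHX arrays. The 4 groups with CHX formed a lower pair without DEX and a higher pair with DEX, and no array of the lower pair reached the higher one.

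**Figure D1:**
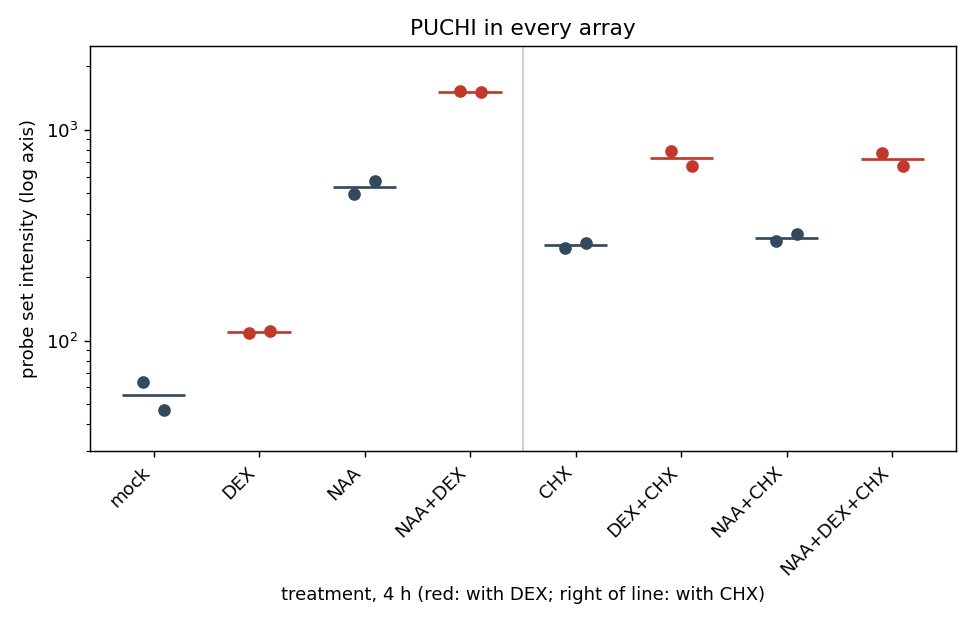
PUCHI intensity (vertical, log axis) in each of the 16 arrays by treatment, points being arrays, lines group means of 2 arrays, red the groups with DEX, and the groups right of the grey line those with CHX. The red groups sit above their partners in every background, and the auxin steps seen on the left are missing on the right.

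From lowest to highest, the group means ± SD (n = 2 each) were 55.1 ± 11.9 in mock, 109.3 ± 1.53 in DEX, 283.5 ± 10.8 in CHX and 307.8 ± 15.2 in NAA+CHX. They went on with 533.9 ± 54.7 in NAA, 722.9 ± 74.6 in NAA+DEX+CHX, 733.1 ± 85.3 in DEX+CHX and 1517 ± 4.61 in NAA+DEX. Between neighbours in this order, NAA+DEX+CHX and DEX+CHX differed by 10.2, less than the larger SD of 85.3, and their arrays overlapped. CHX and NAA+CHX differed by 24.3 against a larger SD of 15.2, with arrays that did not overlap but a difference that did not pass the test (below). The other 5 neighbouring pairs were further apart than the larger SD and did not overlap. The highest array stood 32.6-fold above the lowest.

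The first comparison asks whether releasing LBD16:GR into the nucleus was followed by a change in PUCHI. PUCHI was higher with DEX in all 4 backgrounds, and in each of them the lowest array with DEX was above the highest array without it, by 1.70-fold over mock, 2.64-fold over NAA, 2.31-fold over CHX and 2.1-fold over NAA+CHX. The means rose 2.84-fold from NAA to NAA+DEX, 2.59-fold from CHX to DEX+CHX and 2.35-fold from NAA+CHX to NAA+DEX+CHX. From mock to DEX the ratio of means was 1.98, a difference that did not pass the test. In intensity units the difference with DEX was 54.2 over mock, 982.6 over NAA, 449.6 over CHX and 415.1 over NAA+CHX.

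These differences were tested with limma on log2(intensity + 16) over all probe sets, with Benjamini-Hochberg adjustment and a threshold of 0.05 on the adjusted p. All log2 changes below are on this scale, which understates the change of low values. NAA+DEX exceeded NAA by 1.48 ± 0.15 (log2 change ± SE; limma adjusted p = 0.000354), where 1.22% of probe sets were called higher. DEX+CHX exceeded CHX by 1.32 ± 0.15 (limma adjusted p = 0.00989), where 0.0528% of probe sets were called higher. PUCHI ranked 8 by size among those 12 probe sets. NAA+DEX+CHX exceeded NAA+CHX by 1.19 ± 0.15 (limma adjusted p = 0.0116), with 0.0923% of probe sets called higher, and PUCHI ranked 16 by size among those 21. DEX exceeded mock by 0.83 ± 0.15 (95% interval 0.50 to 1.16; limma adjusted p = 0.12), where 0.0396% of probe sets were called higher and PUCHI was not among them. Rises made up 75% of the calls in that comparison, and 90% with each array centred on its median.

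Both calls made in a single background with CHX were lost when certain single arrays were left out. DEX+CHX vs CHX was no longer called without CHX replicate 1 (limma adjusted p = 0.0872), CHX replicate 2 (0.0853), DEX+CHX replicate 1 (0.111) or DEX+CHX replicate 2 (0.0613). NAA+DEX+CHX vs NAA+CHX was no longer called without NAA+CHX replicate 1 (0.0841), NAA+CHX replicate 2 (0.0983) or NAA+DEX+CHX replicate 1 (0.129). When the fit held the arrays of the groups compared alone, the adjusted p was 0.0632 for NAA+DEX vs NAA, 0.517 for DEX+CHX vs CHX and 0.414 for NAA+DEX+CHX vs NAA+CHX. DEX vs mock did pass with quantile normalization (0.91, limma adjusted p = 0.049) and with a robust, intensity-dependent prior variance (0.83, limma adjusted p = 0.0447). Under the other 7 of 9 alternative settings it did not pass. Over these its change went down to 0.54 and the limma adjusted p up to 0.775.

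Averaged over the auxin states, PUCHI rose with DEX both with and without CHX. The change was 1.15 ± 0.11 without CHX (95% interval 0.92 to 1.39; limma adjusted p = 0.000887), where 0.624% of probe sets were called higher (38.8% of the calls, or 51.2% with median centring). It was 1.25 ± 0.11 with CHX (95% interval 1.02 to 1.49; limma adjusted p = 0.000388), where 0.119% were called higher. PUCHI ranked 18 by size among 142 raised probe sets without CHX and 12 among 27 with CHX, and 14 probe sets, 0.0615% of those tested, were raised in both. Neither call was lost when any 1 of the 16 arrays was left out. The difference between both effects, tested as the interaction of DEX with CHX, was 0.10 (95% interval -0.23 to 0.43; limma adjusted p = 0.938), where 0.0747% of probe sets were called. In a test that used PUCHI alone, an exact two-sided permutation of the DEX labels within the 4 backgrounds, the mean difference was 1.20 and p = 0.00154, the smallest that the 1296 arrangements can give, with the higher mean on the DEX side in 4 of 4 backgrounds.

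**Figure D2:**
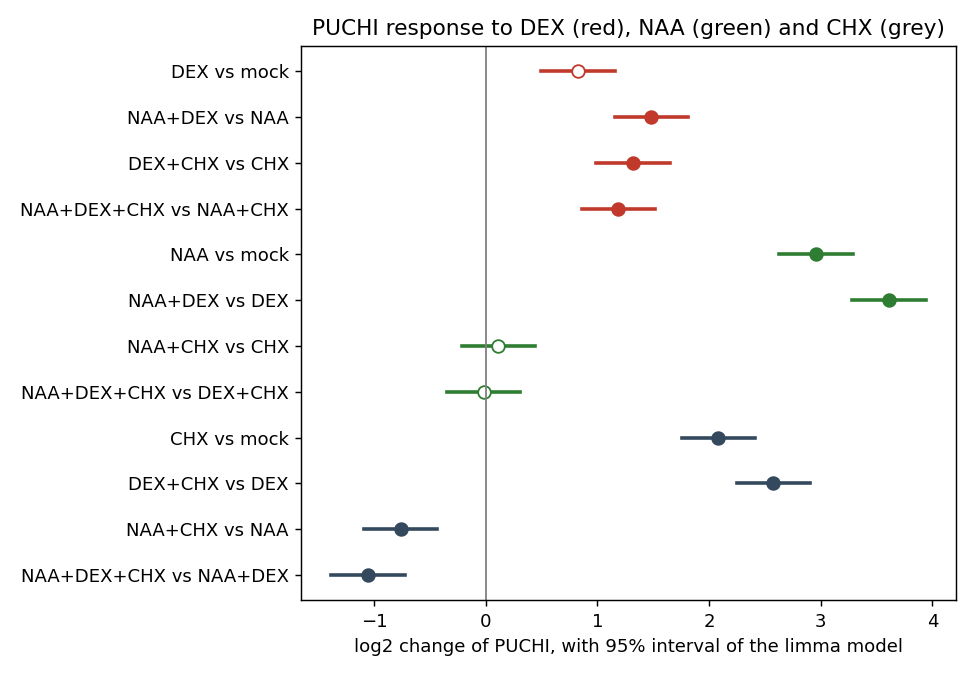
Log2 changes of PUCHI for the comparisons between single groups (horizontal, log2(intensity + 16) scale), without the mean effects and interactions. Points are the limma estimates (filled where called) and bars their 95% intervals, with DEX comparisons in red, NAA in green and CHX in dark grey. The DEX changes lie between 0.83 and 1.48 in all 4 backgrounds, and the NAA changes are 2.96 and 3.61 without CHX against 0.11 and -0.02 with it.

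Whether DEX acted more strongly in the presence of auxin was tested within each CHX state. Without CHX, the log2 change with DEX was larger by 0.65 in NAA than in mock (95% interval 0.19 to 1.12), with an unadjusted limma p of 0.0101 and an adjusted p of 0.256, where 0.822% of probe sets were called. This difference passed the test with a pseudocount of 64 in place of 16 (0.86, limma adjusted p = 0.0192). A larger pseudocount understates the change of low values more, and mock and DEX were the lowest groups. Under 8 of the 9 alternative settings the difference did not pass. Over these settings it went down to 0.52 and the limma adjusted p up to 0.465. With CHX, the corresponding difference was -0.13 (95% interval -0.60 to 0.33). For that difference limma called 0% of probe sets, with 1067 of them at an unadjusted p under 0.05.

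The second comparison asks how PUCHI responded to auxin. Without CHX, NAA was accompanied by 9.69-fold higher mean intensity than mock, and NAA+DEX by 13.9-fold higher mean intensity than DEX. On the log2 scale these rises were 2.96 ± 0.15 (limma adjusted p = 3.9e-07) and 3.61 ± 0.15 (limma adjusted p = 7.42e-08). In these comparisons 7.3% and 14.1% of probe sets were called higher, and PUCHI ranked 57 by size among 1661 and 41 among 3203. The mean over both DEX states was 3.28 ± 0.11 (limma adjusted p = 4.3e-09), where 18.3% of probe sets were called higher. Rises made up 54.6%, 58.9% and 60.0% of the calls in these 3 comparisons, and 41.3%, 44.7% and 45.1% with median centring.

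With CHX, the differences of PUCHI with auxin did not pass the test. The change was 0.11 from CHX to NAA+CHX (95% interval -0.22 to 0.44; limma adjusted p = 0.836) and -0.02 from DEX+CHX to NAA+DEX+CHX (95% interval -0.35 to 0.31; limma adjusted p = 0.984). Their mean was 0.05 (95% interval -0.19 to 0.28; limma adjusted p = 0.876), and its sign turned when DEX+CHX replicate 2 or NAA+DEX+CHX replicate 1 was left out (-0.0114 and -0.0048). In these 3 comparisons 0.167%, 1.18% and 3.62% of probe sets were called in either direction. The interaction of NAA with CHX was -3.24 ± 0.15 (limma adjusted p = 3.04e-07), where 14.6% of probe sets were called and 8.15% were called lower (positive values were 44.3% of the calls, or 58.1% with median centring) and PUCHI ranked 18 by p among all 22746. In the permutation within 4 backgrounds, NAA gave a mean difference of 1.67 with exact p = 0.0185 and a higher mean in 3 of 4 backgrounds.

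The third comparison concerns CHX itself, whose sign depended on auxin. CHX raised mean PUCHI intensity 5.14-fold over mock (2.08 ± 0.15, limma adjusted p = 4.25e-07), and DEX+CHX raised it 6.71-fold over DEX (2.57 ± 0.15, limma adjusted p = 7.35e-08). In the presence of auxin it was lower with CHX, by 1.73-fold from NAA to NAA+CHX (-0.76 ± 0.15, limma adjusted p = 0.00113) and by 2.1-fold from NAA+DEX to NAA+DEX+CHX (-1.06 ± 0.15, limma adjusted p = 9.47e-05). CHX moved a large part of the array: 23% and 24.2% of probe sets were called higher in the first pair of comparisons, and 28.6% and 29.8% lower in the second. The permutation within 4 backgrounds gave a mean CHX difference of 0.71 with exact p = 0.171 and a higher mean in 2 of 4. The array medians rose with CHX as given above, and with every array centred on its median the CHX vs mock change of PUCHI was 1.93 against a median of -0.20 over all probe sets.

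PUCHI was next set beside the other genes of lateral root initiation. Of 31 genes listed for this process, 5 had a listed probe set: LBD16, LBD29, PUCHI, the receptor kinase gene CR4 and AT4G37295, to which the gene table gives no name. Without CHX, DEX on average raised 2 of these 5 genes and lowered 1, and 2 were not called, beside 0.624% of all probe sets called higher and 0.985% called lower. With CHX, 2 rose and 3 were not called, beside 0.119% called higher. The median of the 5 was 0.27 and 0.25, beside -0.03 and -0.02 over all probe sets. Both medians are the values of CR4, which was not called, so they do not show a shift of the list as a whole. The genes that rose were PUCHI itself and AT4G37295 in both. The list holds PUCHI and was chosen with earlier results of these data known, so the counts are a description and show no excess.

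AT4G37295 had its lowest 4 groups in the same order as PUCHI, and its highest level, like PUCHI, in NAA+DEX. It read 109.6 and 114.5 in the mock arrays, 284.7 and 209.3 in DEX, 729.2 and 673.7 in CHX and 1862.9 and 2249.4 in DEX+CHX. Its means were 2203 ± 157 in NAA, 4713 ± 198 in NAA+DEX, 786 ± 85.9 in NAA+CHX and 3149 ± 192 in NAA+DEX+CHX. The DEX effect was 1.06 without CHX (limma adjusted p = 0.0017) and 1.75 with CHX (limma adjusted p = 4.2e-05), and no array with DEX overlapped those of its background without DEX.

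LBD16 and LBD29, LOB-domain factors that auxin induces at the start of lateral root formation, rose with NAA over mock, by 3.40 and 4.26 on the log2 scale (limma adjusted p = 1.5e-07 and 1.4e-07), and neither was called higher with DEX in any background. LBD29 means were 318 ± 32.1 in mock, 140 ± 38.1 in DEX, 6361 ± 481 in NAA and 3980 ± 404 in NAA+DEX. With DEX it fell by 0.89 on average without CHX (limma adjusted p = 0.0061, with 0.985% of probe sets called lower, but adjusted p = 0.0718 with a fit of the compared arrays alone), and the change was -0.59 with CHX (limma adjusted p = 0.24). LBD16 means were 474 ± 42.7 in mock, 411 ± 35.9 in DEX, 5145 ± 102 in NAA and 3542 ± 652 in NAA+DEX. Its mean DEX effects were -0.37 without CHX (limma adjusted p = 0.14) and 0.13 with CHX, both not called. CR4 read between 26.1 and 88.2, and its DEX effects of 0.27 and 0.25 did not pass the test.

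**Figure D3:**
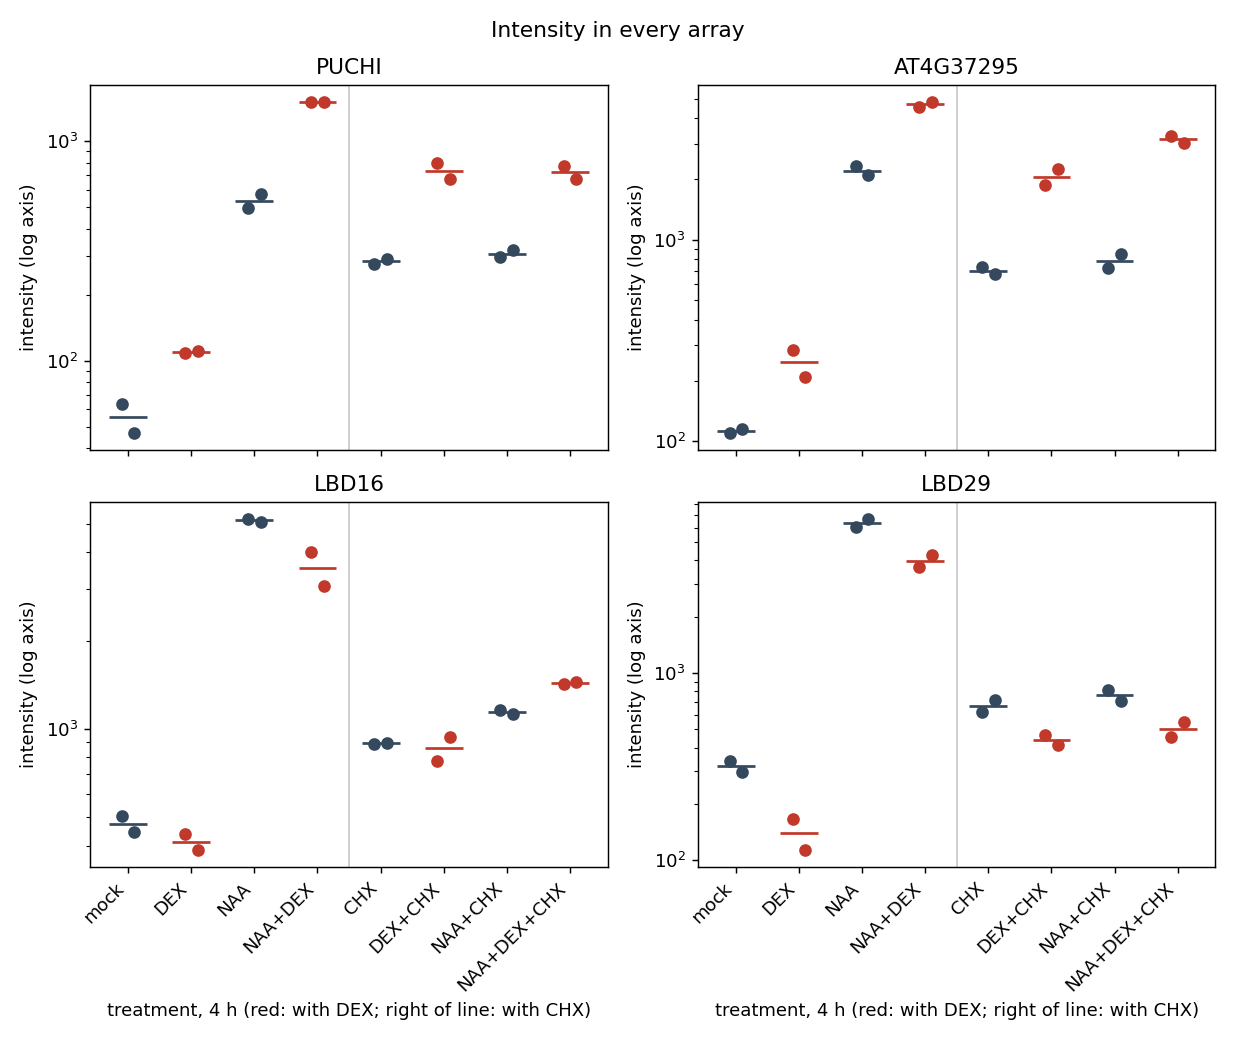
Intensity (vertical, log axis, own scale in each panel) of PUCHI, AT4G37295, LBD16 and LBD29 in each of the 16 arrays, with group means as lines, red for groups with DEX and the groups with CHX right of the grey line. PUCHI and AT4G37295 are higher in the red groups throughout, while LBD29 is lower in them.

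The genes whose pattern was most like that of PUCHI were ranked by Pearson correlation over the 16 arrays on the log2 scale, among 13512 other probe sets with 1 gene. These values describe likeness over arrays that share treatments and scaling, and carry no test. AT4G37295 came first with r = 0.983, and was first over the 8 group means (0.989) and by Spearman correlation (0.924) too. AT5G16110 (0.937), AT2G38000 (0.936), AT3G54000 (0.928) and AT5G05180 (0.916) followed. The ranking went on with AT3G63240 (0.912), the expansin gene EXPA20 (0.907), AT4G14390 (0.905), AT4G32910 (0.904) and AT5G63040 (0.895). Expansins loosen the cell wall. The median r over all 22745 other probe sets was 0.037. Of all these, 24 probe sets, the 10 included, reached at least the r of AT5G63040. Of these 10 genes, 5 were also among the first 10 over group means and 4 by Spearman correlation, so the ranking below the first place depended on the measure.

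The 10 genes were chosen on these same arrays, so their changes are given as a description. Their log2 changes ran from 0.14 to 1.06 for the mean DEX effect without CHX and from 0.08 to 1.75 with CHX. In limma's test 4 of 10 were called without CHX (AT4G37295, AT3G54000, AT5G05180 and AT4G14390) and 3 of 10 with CHX (AT4G37295, EXPA20 and AT4G14390), where 0.624% and 0.119% of all probe sets were called higher. With each of the 16 arrays left out in turn, the call with CHX was lost in 13 cases for AT4G14390 and in 7 for EXPA20, and that of AT3G54000 without CHX in 3. Their changes from mock to NAA ran from 0.46 to 4.11.

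**Figure D4:**
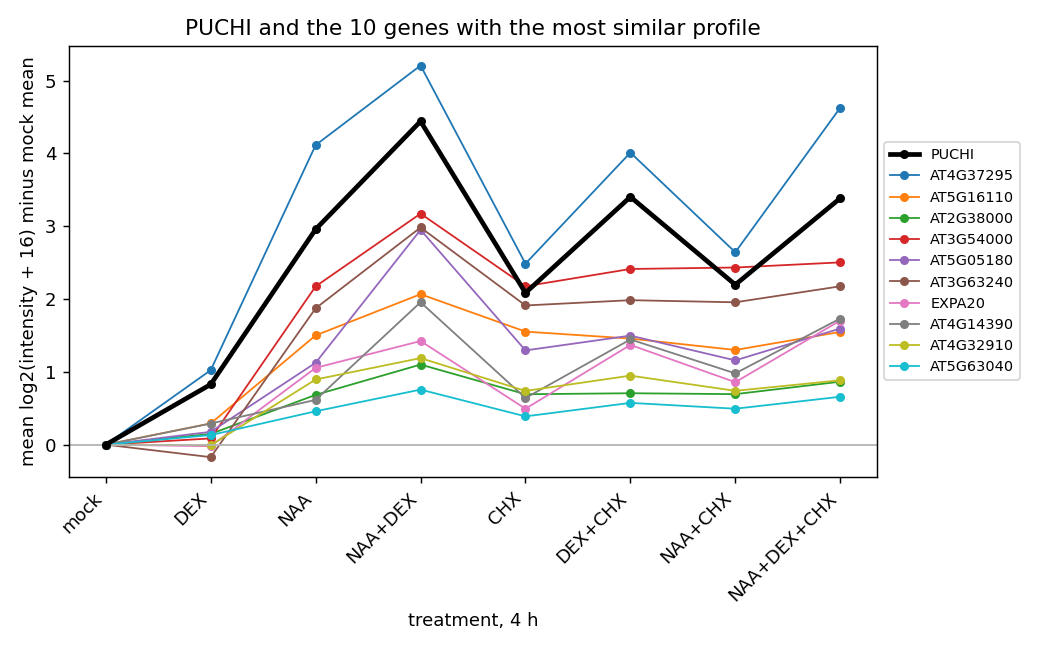
Group means of log2(intensity + 16) minus the mock mean (vertical) by treatment (horizontal) for PUCHI in black and the 10 genes most like it in colours. Of these 10, AT4G37295 tracks PUCHI most closely, with r = 0.983 over the 16 arrays.

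Values of 10 other AP2/ERF genes with a listed probe set are given beside those of PUCHI, a set chosen after their values were seen. Without CHX, 0 of 10 rose and 1 fell with DEX in limma's test of the mean effect, with 3 of 10 at an unadjusted p under 0.05. Among all probe sets 0.624% were called higher and 0.985% lower, so a count of 0 or 1 among 10 is near the background. The median of the 10 was -0.08, beside -0.03 over all probe sets. With CHX 0 of 10 were called, 0 of 10 had an unadjusted p under 0.05, and the median was -0.11, beside 0.119% of all probe sets called higher and a median of -0.02. SNZ, SHN3, HRD and AT1G28160 of this set had mean intensities of 7.3, 7.9, 19.4 and 22.4. At such low values the scale understates a change, so their lack of a call says little. LEP, from the same ERF subgroup as PUCHI and known for its effect on leaf petioles, had changes of 0.12 and -0.14. LEP was 405 ± 123 in mock and 84.4 ± 20.5 in CHX, so it fell with CHX, by 2.05 on the log2 scale (limma adjusted p = 1.8e-05), where 27% of probe sets were called lower.

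The member that fell in the mean DEX effect was tny, known from a mutant with small organs. Its mean intensity was 1116 ± 86.8 in mock and 1373 ± 166 in DEX, but 423 ± 38.7 in NAA and 155 ± 5.42 in NAA+DEX. Its change from NAA to NAA+DEX was -1.36 (limma adjusted p = 0.00022, with 1.71% of probe sets called lower). From mock to DEX it was 0.29 (limma adjusted p = 0.65), so the mean joins changes of opposite sign. Without CHX, its interaction of DEX with NAA was -1.65 (limma adjusted p = 0.0028, with 0.822% of probe sets called), and its mean DEX effect was -0.54 (limma adjusted p = 0.014). The latter call was lost when replicate 1 of DEX, replicate 1 of NAA+DEX or replicate 2 of NAA was left out, and with median centring, with limma adjusted p between 0.0505 and 0.0592 in these cases. It was also lost with a fit of the compared arrays alone (limma adjusted p = 0.143).

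**Figure D5:**
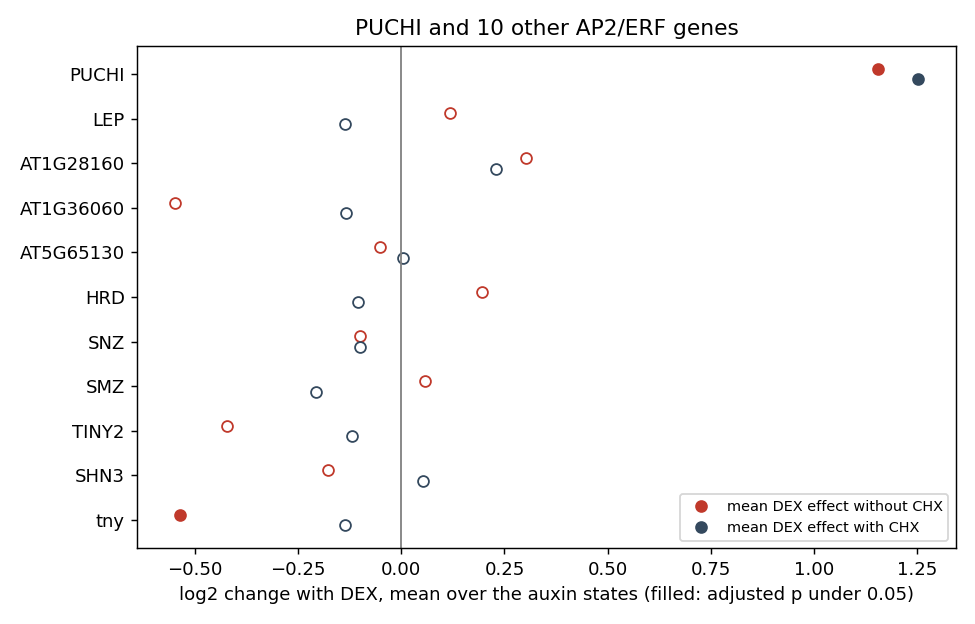
Mean DEX effect (horizontal, log2 change) without CHX in red and with CHX in dark blue for PUCHI and 10 other AP2/ERF genes, filled where the limma adjusted p was under 0.05. PUCHI lies at 1.15 and 1.25, and the other genes between -0.55 and 0.30. SNZ, SHN3, HRD and AT1G28160 had mean intensities of 7.3 to 22.4, where the scale understates a change.

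Other lists fixed for PUCHI's known settings held few listed probe sets. Of 6 genes of ERF subgroup VIII-b, 3 had one (PUCHI, LEP and AT1G28160), and PUCHI alone of these 3 was called in the mean DEX effects. Of all probe sets, 0.624% were called higher without CHX and 0.119% with CHX. The called member is the gene chosen for this report, so the count says nothing of the subgroup. AT1G28160 had a mean intensity of only 22.4. Of 9 callus and regeneration genes, 2 had one, AT1G36060 and AT5G65130, with mean DEX effects without CHX of -0.55 and -0.05 that did not pass the test. Of 6 floral meristem partners, 1 had one, the F-box gene UFO, at a mean intensity of 7.5. Of 26 genes of very-long-chain fatty acid elongation, a pathway linked to PUCHI in lateral roots, 0 had a listed probe set, so none could be analysed.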

How the data were processed

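The authors deposited linear intensities, 1 for each probe set in each array, made with Affymetrix Expression Console 1.3 per the submitters' processing notes. The 2% trimmed mean did not vary between arrays, which shows a scaling of each array before deposit. Background correction and summary method are not given in the sources used here. The labels call the arrays of a group independent sets and name 2 labelling kits without assigning them, so a kit could not be entered in the fit. A p-value here covers the spread between such samples. With 2 arrays a group, precision is limited.

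Of 22810 probe sets, 64 controls were removed. The array's annotation gave 13513 probe sets exactly 1 gene, 503 several and 8730 none. All 16 arrays entered 1 limma 3.58.1 fit (R 4.3.3) of 8 group means with 8 residual degrees of freedom, on log2(intensity + 16) with no filter on low values. From it 20 two-sided comparisons were drawn, each adjusted by Benjamini-Hochberg over 22746 probe sets. Comparisons that share a group are not independent. The fit was also run on simulated normal values with 200 changed probe sets, for the mean DEX effect with CHX alone. No other treatment effect was simulated, so this run checks the calculation and not the results given here.

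The genes named are PUCHI, LBD16, LBD29 and AT4G37295 whatever their values, and the 10 most correlated with PUCHI. Of each list for PUCHI's known settings, members called with DEX are named, or else up to 4 by mean intensity. CR4, the tissue markers, the other AP2/ERF genes and the loci next to PUCHI are named outside this rule. Among the AP2/ERF genes, SNZ, SHN3, HRD and AT1G28160 are named for their low mean intensity. The gene, its lists and tests were chosen with earlier results of these data known. Alternatives were pseudocounts of 1 and 64, quantile normalization, median centring, a low-value filter at 50, an intensity trend with robust prior, array weights, a replicate block, a fit of the compared arrays alone, and leaving out each array.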

Additional observations from a re-analysis of the deposited data

Results flagged for a closer look

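For all 4 genes looked at from the lateral root list, the effect of NAA differed between the groups with and without CHX. This was limma's test of the difference itself. The 4 were picked by name, and CR4, the other measured gene of the list, was not looked at here. The interaction of NAA with CHX was -3.24 for PUCHI (limma adjusted p = 3.04e-07) and -3.76 for AT4G37295 (2.3e-07). It was -2.68 for LBD16 (1e-06) and -4.30 for LBD29 (2.3e-07). Each value is a log2 change with NAA in the presence of CHX minus that in its absence, averaged over the groups with and without DEX. In this comparison 14.6% of all probe sets were called, and 8.15% were called lower. These 4 values come from the same 16 arrays. Each gene kept its sign and its call under all 9 alternative settings and with each array left out in turn.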

How the results depend on the processing

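Of the 20 limma comparisons of PUCHI, 13 kept their direction and their side of the threshold under every alternative. A pseudocount of 64 brought the DEX by NAA interaction without CHX past the threshold (0.86). Quantile normalization (0.91) and the robust prior (0.83) did so for DEX vs mock. Neither comparison was called under the remaining settings. Over these the interaction went down to 0.52 (limma adjusted p up to 0.465) and DEX vs mock down to 0.54 (limma adjusted p up to 0.775). Fitting the compared arrays alone, which leaves fewer arrays to estimate the spread, took NAA+DEX vs NAA (1.48), DEX+CHX vs CHX (1.32) and NAA+DEX+CHX vs NAA+CHX (1.19) below it. With each array left out in turn, DEX+CHX vs CHX ranged from 1.2 to 1.43 and NAA+DEX+CHX vs NAA+CHX from 1.08 to 1.29, losing the call in 4 and 3 cases. NAA+DEX+CHX vs DEX+CHX ranged from -0.14 to 0.10 and the mean NAA effect with CHX from -0.0114 to 0.105, changing sign in 2 cases each and never called.

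Over all probe sets, arrays with a common replicate number did not deviate together (correlations of -0.059 to 0.067 over 28 pairs of groups). Such correlations cannot show a batch that acts on few probe sets or shifts a whole array evenly. With the replicate block the mean DEX effect with CHX was 1.25 (limma adjusted p = 0.00127), and no call of PUCHI changed.

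Counts of probe sets called were less stable. With 1 array left out, they ranged from 0 to 256 for DEX vs mock (12 with all arrays), 290 to 748 for NAA+DEX vs NAA (667), 4 to 15 for DEX+CHX vs CHX (12) and 12 to 27 for NAA+DEX+CHX vs NAA+CHX (25). They ranged from 183 to 582 for the mean DEX effect without CHX (366), 21 to 39 with CHX (33) and 2 to 33 for the DEX by CHX interaction (17). For auxin they ranged from 1510 to 2978 for NAA vs mock (3042), 3367 to 5916 for NAA+DEX vs DEX (5436), 3 to 51 for NAA+CHX vs CHX (38), 18 to 300 for NAA+DEX+CHX vs DEX+CHX (268), and 304 to 1059 for the mean NAA effect with CHX (824). The DEX by NAA interaction called 89 to 377 without CHX (187) and 0 to 1 with CHX. Under the other settings the ranges were 0 to 23 for DEX vs mock, 61 to 1100 for NAA+DEX vs NAA, 0 to 17 for DEX+CHX vs CHX, 0 to 34 for NAA+DEX+CHX vs NAA+CHX, and 91 to 620 and 11 to 49 for the mean DEX effects. They were 3 to 101 for DEX by CHX, 14 to 349 for DEX by NAA without CHX, 671 to 3811 for NAA vs mock, 3319 to 6163 for NAA+DEX vs DEX, 0 to 301 for NAA+CHX vs CHX, 0 to 611 for NAA+DEX+CHX vs DEX+CHX and 583 to 1553 for the mean NAA effect with CHX. The causes were not tested.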

Other observations

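The loci next to PUCHI on one side in the gene table, AT5G18550 and AT5G18540, were looked at after the values of PUCHI were known. AT5G18550, the nearer of them, correlated with PUCHI at r = 0.884 over the 16 arrays, rank 15 among the probe sets with 1 gene, and AT5G18540 at 0.52, rank 1110. AT5G18550 had means of 82.7 ± 15.8 in mock, 66.7 ± 5.37 in DEX, 210 ± 23.5 in NAA and 258 ± 30.3 in NAA+DEX (SD, n = 2 each). With CHX its means were 166 ± 6.51 in CHX, 192 ± 39.9 in DEX+CHX, 201 ± 53.9 in NAA+CHX and 268 ± 9.61 in NAA+DEX+CHX. It rose with NAA over mock by 1.20 (limma adjusted p = 0.0024, and 0.0563 with a fit of the compared arrays alone) and with CHX over mock by 0.89 (limma adjusted p = 0.0029). Its mean DEX effects of 0.01 without CHX and 0.30 with CHX did not pass the test (limma adjusted p = 0.98 and 0.86). Whether these effects differ from those of PUCHI was not tested. AT5G18540 was not called with NAA over mock (0.37, limma adjusted p = 0.42), with CHX over mock (0.53, limma adjusted p = 0.11) or in the mean DEX effects (0.18 without CHX and 0.19 with CHX).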
